A study of Mus musculus with 40 samples.

Results

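Trav16 is a family of T cell receptor alpha variable (V) segments that the mouse annotation gives in 3 copies, Trav16d-dv11, Trav16n and Trav16. The copies were taken as every row of the deposited Tcra and Trd repertoire tables whose name starts with Trav16, Trav16d or Trav16n, and 2 of the 111 V segments listed in any of these tables met the rule. Trav16d-dv11 and Trav16n were listed in all 8 tables. No row carried the name Trav16, so no value is given for that copy.

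Thymocytes assemble an alpha chain gene when a Trav and a Traj segment are cut and joined. The Trd genes of the delta chain lie between the Trav and Traj arrays, and V segments whose names contain "dv" are annotated for use by both chains. The first joins on an allele take Trav segments near the Traj array and Traj segments at its 5′ side, and later joins replace them with Trav segments farther upstream and Traj segments farther downstream. Much of the Trav array of C57BL/6 mice is repeated, which gives many families an original copy, a copy marked d and a copy marked n. The protein CTCF binds DNA and holds the base of chromatin loops, and Ea is the enhancer downstream of the alpha constant gene. The study asked what a CTCF site beside Ea does for joining of alpha segments.

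Thymocytes of C57BL/6 mice labelled EACBE-/-, the genotype that the series ties to that CTCF site, were set against those of C57BL/6 mice labelled EACBE+/+, here called wild type. The labels give an age of 4 to 8 weeks and the thymus as tissue, and the antibody injection they describe is for Rag-deficient mice, not for these. Libraries were made by 5′ RACE, in which a template switch adds one adapter to the 5′ end of every cDNA so that no primer for a V segment is needed, and each genotype has 2 libraries for Tcra and 2 for Trd. The other 32 of the 40 samples of the series were not analysed here. The labels do not say whether replicates came from separate mice, so p-values measure the spread between these libraries, and the tables hold receptor segments alone, so neither the genotype nor the cell type could be checked from them.

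The replicates differed in depth, and results are therefore also given within each replicate number. Replicate 1 of the EACBE-/- and the wild-type Tcra libraries held 19085 and 10694 counts, and replicate 2 held 163953 and 172388. In Trd, the EACBE-/- and wild-type totals were 5615 and 1744 in replicate 1 and 47158 and 28093 in replicate 2. Replicate 1 listed 22 V segments in the EACBE-/- Trd table and 18 in the wild-type one, against 103 and 88 in replicate 2.

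The copies lie on chromosome 14 of GRCm38.p6, the assembly behind mm10, which the submitters' processing notes name. RefSeq places Trav16d-dv11 at 53047287 to 53047821, 45th of the 130 annotated Trav genes counted from the end farthest from Traj. Trav16n lies at 53351090 to 53351621 and is the 79th, and Trav16 lies at 53743174 to 53743705 and is the 117th. All 3 are annotated as V segments, with lengths of 535, 532 and 532 bases. Each copy sits in the same surroundings, with a Trav8-2 relative before it and a Trav13-4 relative after it (Trav8d-2 and Trav13d-4, Trav8n-2 and Trav13n-4, Trav8-2 and Trav13-4-dv7). The starts of Trav16d-dv11 and Trav16n are 303803 bases apart, and those of Trav16n and Trav16 392084 bases apart. The annotation also gives the name Trav16n as a synonym of Trav16. The sources used here do not give how the authors assigned reads from near-identical copies. Each copy's value is uncertain in that respect, and the sum of both is given beside it.

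The question of the first comparison was whether the Trav16 copies took another share of Tcra counts in EACBE-/- thymocytes. The 2 copies together had the higher share in EACBE-/- libraries, mainly through Trav16n, but neither copy passed the test. In simulations, that test recovered 2.86% of the Tcra V segments given a 1.5-fold change. A change of that size would thus mostly be missed. Trav16n held 438 and 4485 counts in the EACBE-/- libraries (2.295% and 2.74% of Tcra counts) and 128 and 3739 in the wild-type libraries (1.20% and 2.17%). The EACBE-/- libraries did not overlap the wild-type ones, yet the lower EACBE-/- value lay close to the higher wild-type value. The mean share of Trav16n was 2.52% ± 0.312 in EACBE-/- and 1.68% ± 0.687 in wild type (SD, n = 2 each), a ratio of 1.49, which was 1.92 within replicate 1 and 1.26 within replicate 2. The log2 change of Trav16n was 0.57 (SE 0.366), with an adjusted p of 0.468 by edgeR's quasi-likelihood test with Benjamini-Hochberg adjustment over 105 V segments, and 2 SE either side reach from -0.16 to 1.30.

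Trav16d-dv11 had 377 and 1663 counts in EACBE-/- (1.98% and 1.01%) and 193 and 1379 in wild type (1.80% and 0.800%). Its groups overlapped, and the replicates of each genotype lay farther apart than the genotypes did. The means were 1.49% ± 0.680 in EACBE-/- and 1.30% ± 0.711 in wild type (SD, n = 2 each), with ratios of 1.09 within replicate 1 and 1.27 within replicate 2. Its log2 change was 0.21 (SE 0.498, adjusted p = 0.835 by edgeR's quasi-likelihood test with Benjamini-Hochberg adjustment), and turned to -0.34 when EACBE-/- replicate 1 was left out and to -0.28 when wild-type replicate 2 was.

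With both copies summed, the libraries of the genotypes did not overlap. The sum took 4.27% and 3.75% of Tcra counts in EACBE-/- and 3.00% and 2.97% in wild type, or 4.01% ± 0.368 and 2.99% ± 0.0232 (SD, n = 2 each). The ratio of the sum was 1.34, and it was 1.42 within replicate 1 and 1.26 within replicate 2. When copies were summed for every family, the log2 change of Trav16 was 0.42 (SE 0.15) and its adjusted p was 0.106 in the same edgeR test with Benjamini-Hochberg adjustment. Over all V segments, 6 of 105 passed, which is 5.71%, all of them lower in EACBE-/-. Without either EACBE-/- library 2 passed, without wild-type replicate 1 it was 3 and without wild-type replicate 2 it was 4. The 6 included 0 of the 10 segments named with dv (median log2 change 0.21) and 0 of the 72 segments of families with an original, a d and an n copy listed (median 0.09), where the median over all 105 was -0.12. Libraries that did not overlap in the higher direction, as those of Trav16n did, were found for 25.7% of V segments, and for 49.5% in either direction, so this pattern is common in the table.

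**Figure D1:**
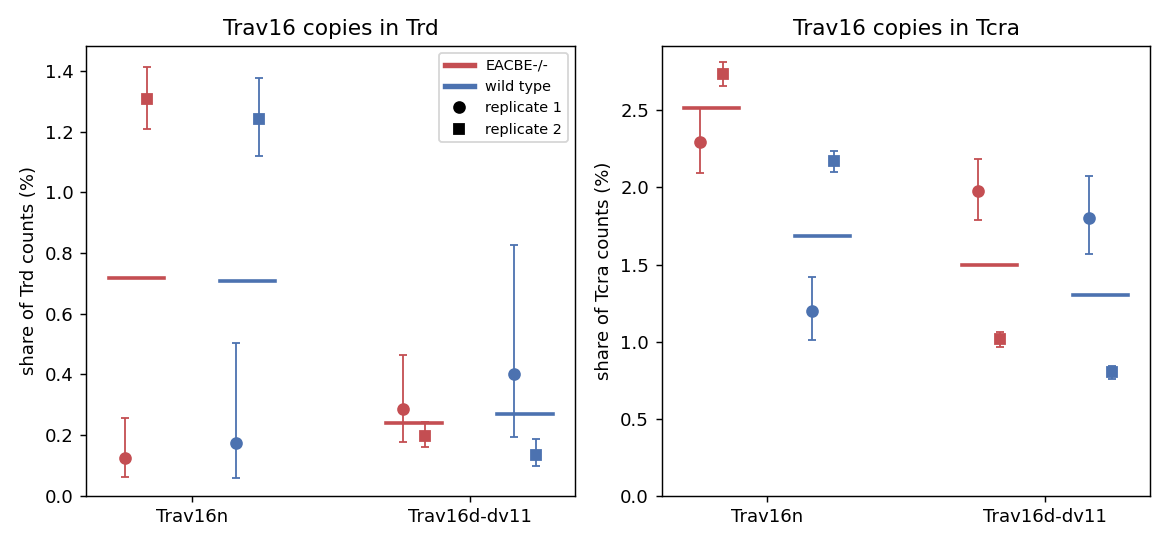
Share of Trd counts (left panel) and of Tcra counts (right panel) taken by Trav16n and Trav16d-dv11, in percent, for EACBE-/- (red) and wild type (blue). Circles are replicate 1, squares replicate 2, thin bars 95% Wilson intervals for counting error and thick lines the means of 2 libraries; in Tcra both EACBE-/- points of Trav16n lie above both wild-type points, and in Trd the squares of Trav16n lie at 1.31% and 1.24% and the circles at 0.125% and 0.172%.

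Both copies belong to the better used part of the Tcra repertoire, though their ranks differed between libraries. Within single libraries, Trav16n ranked 12th of 105 and 8th of 111 in EACBE-/- and 33rd of 106 and 11th of 111 in wild type. Trav16d-dv11 ranked 16th and 35th in EACBE-/- and 16th and 44th in wild type, lower in the deeper replicate 2. By mean share among the 105 V segments listed in all Tcra tables, Trav16n ranked 8th in EACBE-/- and 15th in wild type. Its neighbours in EACBE-/- were Trav12-2 (2.52% ± 0.817) above and Trav7-4 (2.47% ± 0.542) below, and in wild type Trav14-2 (1.70% ± 0.675) above and Trav7-5 (1.67% ± 0.115) below. Trav16d-dv11 ranked 24th in EACBE-/- and 28th in wild type, between Trav3d-3 (1.501% ± 0.0193) and Trav14-2 (1.42% ± 0.352), and between Trav12d-2 (1.31% ± 0.448) and Trav7d-5 (1.28% ± 0.196). These neighbours were picked by rank, so their closeness to the copies follows from that choice and is given as a description only.

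The split between the copies followed the replicate number more than the genotype. Trav16n supplied 53.7% and 73.0% of the Trav16 counts in EACBE-/- Tcra (438 of 815 and 4485 of 6148) and 39.9% and 73.1% in wild-type Tcra (128 of 321 and 3739 of 5118). The 95% Wilson intervals of the EACBE-/- libraries were 50.3% to 57.1% and 71.8% to 74.0%, and those of the wild-type libraries 34.7% to 45.3% and 71.8% to 74.3%, so replicate 2 of both genotypes gave nearly the same split. The genotype difference was 6.88 points with a two-sided exact permutation p of 1.0, where 2 against 2 libraries cannot go below 0.333. In Trd the split was 30.4% and 86.9% in EACBE-/- (7 of 23 and 617 of 710) and 30.0% and 90.2% in wild type (3 of 10 and 349 of 387), a difference of -1.42 points with the same exact p of 1.0.

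The shift toward the n copy in replicate 2 was neither shared by all repeated families nor particular to Trav16. Among the 26 families with a d and an n copy listed in Tcra, the n share of the pair was higher in replicate 2 in 12 families for EACBE-/- and in 17 for wild type. The median difference was -0.408 points in EACBE-/- and 2.24 points in wild type, against 19.2 and 33.2 points for Trav16. Of the other 25 families, 2 had a larger difference than Trav16 in EACBE-/- and 1 in wild type, the largest being 25.8 points for Trav13-4 in EACBE-/- and 46.8 for Trav4-4 in wild type. Those families were picked after their values were seen. Depth moved with the split as well, and its part in the split was not tested.

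**Figure D2:**
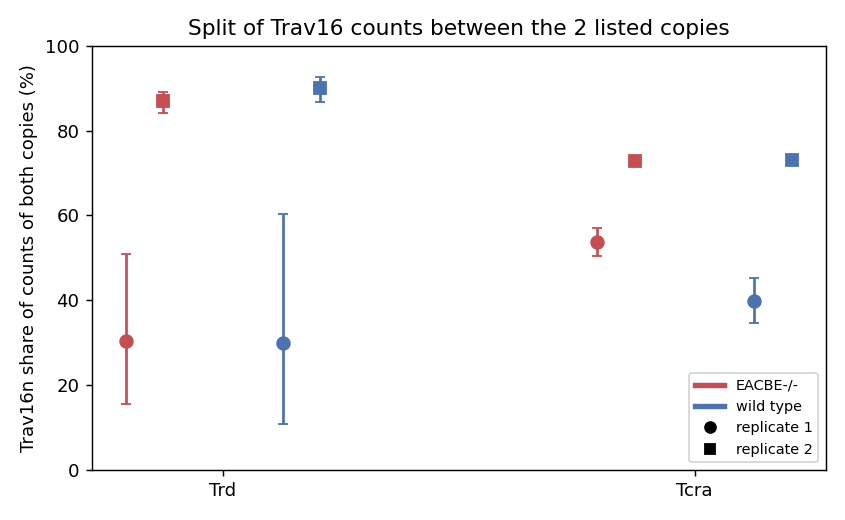
Share of the counts of both copies that came from Trav16n, in percent, for Trd (left) and Tcra (right), with EACBE-/- in red and wild type in blue. Circles are replicate 1, squares replicate 2 and bars 95% Wilson intervals; in both loci the squares of both genotypes lie together, at 73.0% and 73.1% in Tcra, and above the circles.

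The copies joined different parts of the Traj array. Traj numbers fall from the V side of the array, which starts with Traj61, to the constant-gene side, and the segments were grouped as 5′ (Traj61 to Traj42), middle (Traj41 to Traj22) and 3′ (Traj21 to Traj1). 5′ Traj segments took 60.96% and 51.7% of Trav16n counts in EACBE-/- and 57.03% and 38.5% in wild type. Middle segments took 32.2% and 37.3% of Trav16n counts in EACBE-/- and 32.8% and 38.4% in wild type. The 5′ group was thus the larger in 3 libraries and level with the middle group in wild-type replicate 2. Trav16d-dv11 had 5′ shares of 24.7% and 26.5% in EACBE-/- and 16.1% and 22.7% in wild type, below Trav16n in every library. It joined middle segments most often in EACBE-/- (57.8% and 51.2%) and in wild-type replicate 1 (61.1%), and 3′ segments in wild-type replicate 2 (41.2%, against 36.1% for middle ones). The mean Traj number, weighted by counts, was higher for Trav16n than for Trav16d-dv11 in 4 of 4 libraries, by 10.3 and 7.86 in EACBE-/- and by 11.4 and 7.81 in wild type.

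Traj58, Traj57 and Traj56, the segments nearest the V side among those listed, show the contrast at the edge of the array. Together they took 14.6% and 13.2% of Trav16n counts in EACBE-/- and 15.6% and 11.7% in wild type. They took 2.12% and 3.67% of Trav16d-dv11 counts in EACBE-/- and 1.04% and 3.84% in wild type. The share over all other Trav segments lay between, at 6.07% and 8.67% in EACBE-/- and 6.43% and 8.25% in wild type.

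The leading partners of each copy differed accordingly. For Trav16n in EACBE-/-, they were Traj49 with 5.71% and 5.77% of its counts, Traj56 with 5.48% and 4.91%, and Traj57 with 5.25% and 4.97%. By the mean over wild-type libraries these 3 were also first, but the libraries spread widely, with Traj57 at 9.38% and 3.34%, Traj49 at 7.81% and 3.85%, and Traj56 at 6.25% and 4.33%. The wild-type mean of Traj57 was carried by the 128 counts of replicate 1, and in replicate 2 it lay below Traj58 (4.04%), Traj37 (3.82%), Traj23 (3.77%) and Traj45 (3.504%) as well as below Traj56 and Traj49. Relative to all other Trav segments, Traj57 was taken by Trav16n 2.66 and 1.71 times as often in the EACBE-/- libraries and 4.23 and 1.32 times in the wild-type libraries, with replicate 1 the higher in both. For Trav16d-dv11, the leading partners were Traj23 (6.14% ± 0.692), Traj27 (5.19% ± 0.537) and Traj31 (5.10% ± 0.665) in EACBE-/- and Traj26 (5.69% ± 2.21), Traj22 (5.48% ± 2.51) and Traj23 (5.24% ± 0.646) in wild type (SD, n = 2 each). The wild-type means of Traj26 and Traj22 were carried by 14 counts each, of 193, in replicate 1. In wild-type replicate 2, Traj23 (4.79%) came first, followed by the 3′ segments Traj6 (4.50%) and Traj12 (4.35%). Traj26 stood at 4.13% there and Traj22 at 3.70%. Traj23 took 1.45 times its share over other Trav segments in EACBE-/- and 1.43 times in wild type, while Traj31 in EACBE-/- was at 0.984 times.

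**Figure D3:**
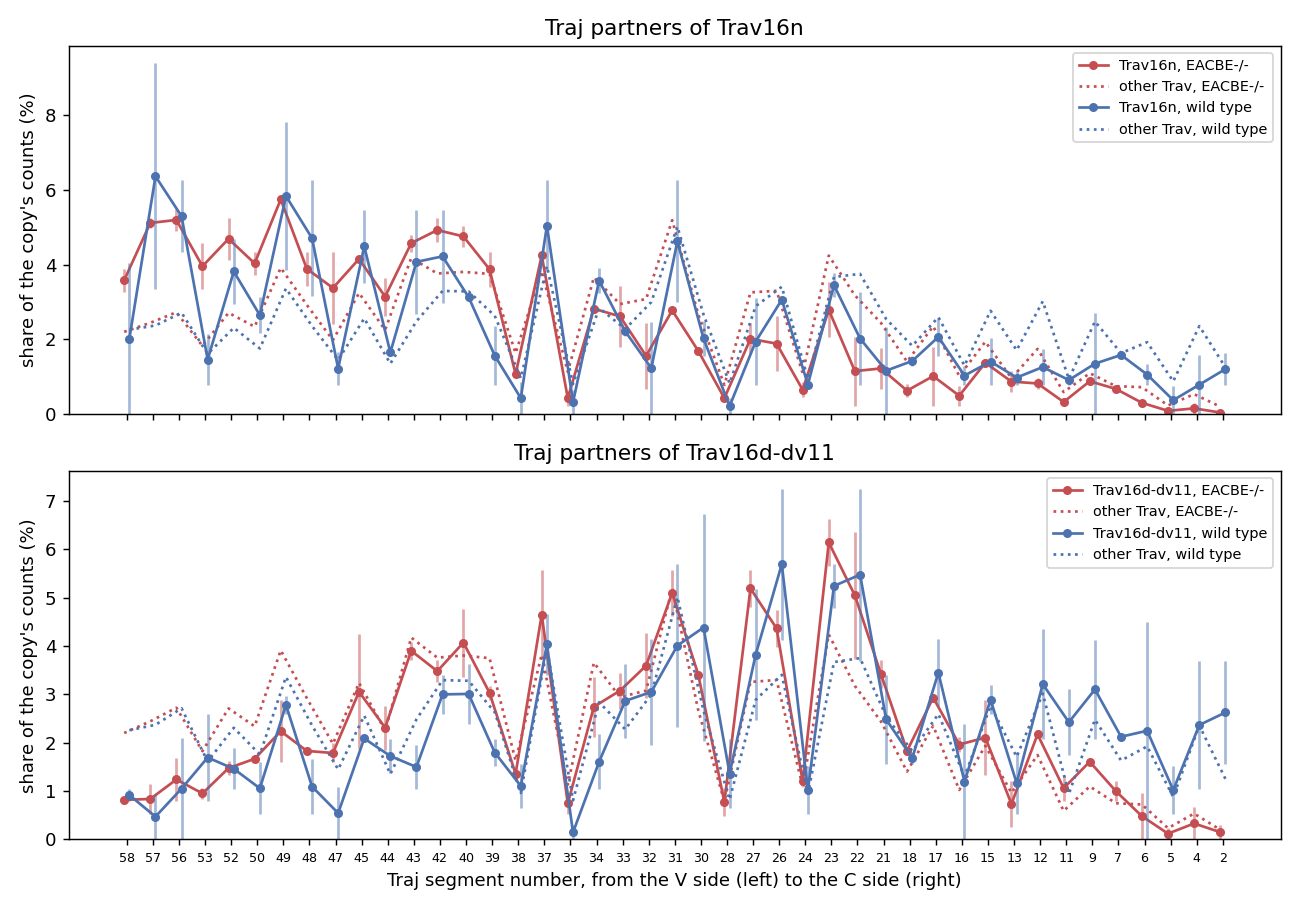
Traj partners of Trav16n (top) and Trav16d-dv11 (bottom): each point is the mean share of the copy's Tcra counts joined to a Traj segment, in percent, over 2 libraries, with a bar between them, and segments run from the V side (left) to the constant-gene side (right). Red is EACBE-/-, blue wild type and dotted lines all other Trav segments; at Traj57 and Traj56 Trav16n lies above the dotted lines in both genotypes and Trav16d-dv11 below them.

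The Traj partners of the summed copies differed between the genotypes, and so did those of all other Trav segments. The 5′ share of both copies together was 44.2% and 44.9% in EACBE-/- and 32.4% and 34.3% in wild type. The groups did not overlap and the difference of 11.2 points was larger than the spread (44.5% ± 0.521 and 33.3% ± 1.31, SD, n = 2 each), with the smallest exact two-sided permutation p that the design allows, 0.333. Over all other Trav segments the 5′ share was 35.6% and 37.4% in EACBE-/- and 29.2% and 30.5% in wild type, a difference of 6.61 points. Alone, Trav16d-dv11 differed by 6.21 points without overlap, and Trav16n by 8.57 points with overlapping groups (exact permutation p = 0.667). The sum also depends on the split between the copies, which differed between libraries. Whether the difference of the summed copies exceeds that of other segments was not tested.

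The 3′ share moved the other way. It was 11.8% and 14.04% for both copies in EACBE-/- and 17.8% and 27.9% in wild type, a difference of -9.94 points (exact permutation p = 0.333), against -11.2 points for other Trav segments. The wild-type libraries were the more spread, and the difference was -5.98 points within replicate 1 and -13.9 within replicate 2. The middle share, 44.0% and 41.1% in EACBE-/- and 49.8% and 37.8% in wild type, overlapped between genotypes (exact permutation p = 1.0).

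The mean Traj number put the same joins on one scale, where a higher number is nearer the V side. For both copies it was 37.3 and 37.1 in EACBE-/- and 33.1 and 31.8 in wild type, a difference of 4.73 (exact permutation p = 0.333), and it was 3.71 for other Trav segments. Trav16d-dv11 alone gave 31.8 and 31.4 in EACBE-/- and 28.6 and 26.1 in wild type, a difference of 4.22 with no overlap. All other Trav segments together did not overlap either (34.9 and 35.0 in EACBE-/-, 31.8 and 30.7 in wild type). The same held for most segments annotated farther from Traj than Trav16d-dv11, of those with at least 50 counts in each library. Trav16n alone gave 42.1 and 39.2 in EACBE-/- and 40.0 and 34.0 in wild type, a difference of 3.70. Its groups overlapped (exact permutation p = 0.667).

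At the far 3′ end, Traj5, Traj4 and Traj2 together took 0% and 1.20% of Trav16d-dv11 counts in EACBE-/- and 3.11% and 8.92% in wild type. For Trav16n the shares were 0% and 0.580% in EACBE-/- and 0.781% and 3.96% in wild type. The counts of 0, of 377 and 438 counts, allow shares of up to 0.796% and 0.685%. Neither copy overlapped between genotypes. For Trav16n the lower wild-type value was 1 count of 128 in replicate 1, with a Wilson interval of 0.138% to 4.29%. That interval includes the 0.580% of EACBE-/- replicate 2, so the separation of Trav16n lies within counting error. Other Trav segments had 0.881% and 1.06% in EACBE-/- and 3.14% and 5.83% in wild type, so the same pattern was present outside the family.

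Tested pair by pair, 1 of the 77 tested pairs of the Trav16 copies passed, which is 1.3%, against 3.27% of all 2416 Tcra pairs, or 2.94% in the lower direction alone. The called pair was Trav16d-dv11 with Traj2, at 0 and 5 counts in EACBE-/- and 3 and 51 in wild type. It passed the count filter only through the wild-type libraries, where it is high, so its direction is no separate support. Traj2 is among the Traj segments nearest the constant gene. The pair took 0% and 0.00305% of Tcra counts in EACBE-/- and 0.0281% and 0.0296% in wild type, where 0 of 19085 counts allows a share of up to 0.0157%. Its log2 change was -3.43 (SE 0.930) with an adjusted p of 0.0337 by edgeR's quasi-likelihood test with Benjamini-Hochberg adjustment. The call rests on few counts, and it was lost with DESeq2 (adjusted p = 0.574) and without 3 of the 4 libraries. Without EACBE-/- replicate 1 the adjusted p was 0.112. Without EACBE-/- replicate 2, and likewise without wild-type replicate 2, the pair fell under the count filter and 0 Trav16 pairs passed. Without wild-type replicate 1 the adjusted p was 0.0187. Over all pairs, 46 were called when EACBE-/- replicate 1 was left out, 8 when it was EACBE-/- replicate 2, 150 for wild-type replicate 1 and 0 for wild-type replicate 2.

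All 77 tested pairs, the called one included, are described by their directions. Pairs under the count filter were not tested. For Trav16n these were Traj28, Traj6, Traj5, Traj4 and Traj2, and for Trav16d-dv11 Traj57, Traj35, Traj6 and Traj5. In replicate 2, Trav16n with Traj2 had 4 counts in EACBE-/- and 61 in wild type, and with Traj4 it had 14 and 59. The 3′ values of Trav16n below leave these pairs out. These changes are in shares of all Tcra counts, so they also carry the change in use of each copy. That change was 0.57 for Trav16n and 0.21 for Trav16d-dv11, so the medians do not measure Traj choice alone. Of the pairs of Trav16n, 13 of 13 with 5′ Traj segments, 13 of 15 with middle ones and 1 of 10 with 3′ ones had a positive log2 change, with medians of 0.91, 0.27 and -0.43. For Trav16d-dv11 it was 11 of 12, 12 of 15 and 4 of 12, with medians of 0.71, 0.61 and -0.34. Over all pairs tested the medians were 0.33, 0.23 and -0.57, with 494 of 722, 647 of 1048 and 164 of 646 positive. Counting libraries that did not overlap, 24 of the 77 pairs were higher in EACBE-/- and 5 lower, where the shares over all pairs were 25.4% and 21.9%, and 47.3% in either direction.

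Trav16n had a higher mean Traj number than the segments around its annotated place. This was looked at after the values were seen and is given as a description, over 59 Trav segments with at least 50 counts in each Tcra library. Of the 26 segments annotated farther from Traj than Trav16n, 0 had a higher mean Traj number, and their highest values were 35.4 in EACBE-/- and 30.5 in wild type, against 40.7 ± 2.04 and 37.0 ± 4.25 for Trav16n. Of the 31 annotated nearer to Traj, 6 in EACBE-/- and 13 in wild type had a higher one. The 6 nearest such neighbours of Trav16n, 3 on each side, had medians of 29.9 and 28.0 in EACBE-/- and 27.1 and 24.4 in wild type, below the value of Trav16n in every library.

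The neighbours of the annotated place of Trav16, the copy with no row, gave other values. Their medians were 41.6 and 42.2 in EACBE-/- and 42.2 and 40.2 in wild type, against 42.1 and 39.2, and 40.0 and 34.0, for Trav16n. In replicate 1 of both genotypes and in replicate 2 of EACBE-/-, Trav16n lay within the range of these 6 neighbours, which was 38.5 to 43.3, 35.0 to 44.7 and 38.9 to 45.1. In wild-type replicate 2 it also lay within their range, 32.7 to 43.8. Whether counts of Trav16 stand in the row of Trav16n was not tested, and the sources used here do not say.

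Trav16d-dv11 lay among its own neighbours. Their medians were 33.2 and 30.4 in EACBE-/- and 25.5 and 24.5 in wild type, against 31.8 and 31.4, and 28.6 and 26.1, for Trav16d-dv11. Other families with a d and an n copy of at least 50 counts in each library showed a smaller gap between the copies. In 5 such families the mean difference in Traj number, n minus d, was -2.34 to 2.29, against 9.33 for Trav16, and the n copy was higher in all 4 libraries in 1 of them.

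**Figure D4:**
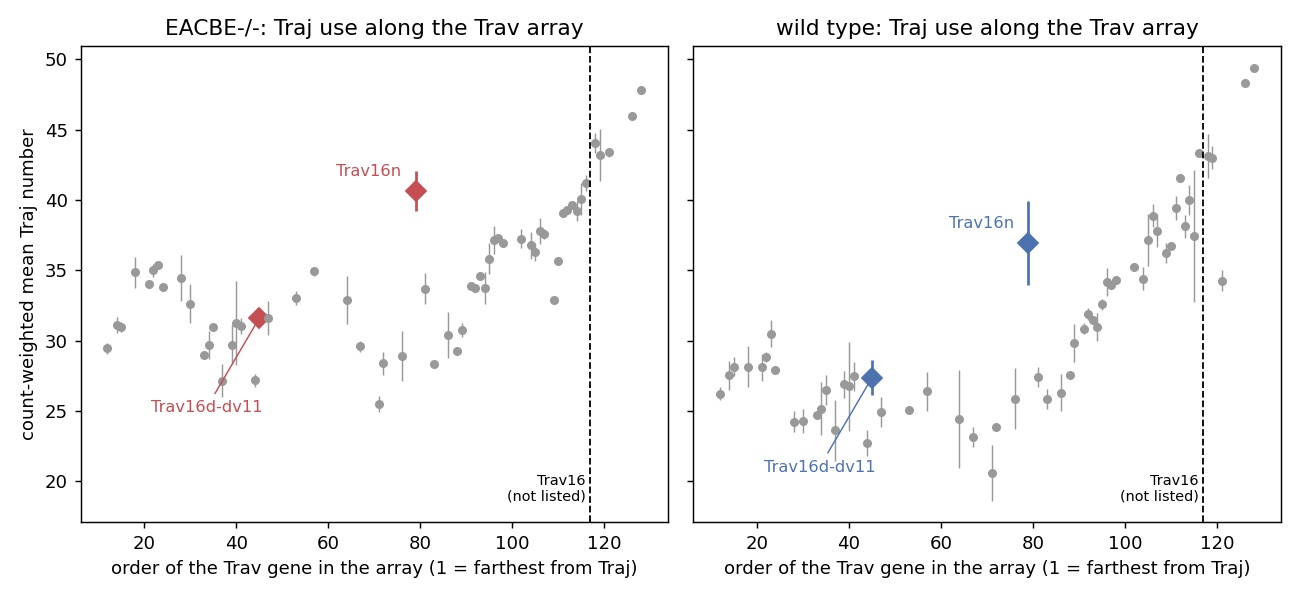
Mean Traj number, weighted by counts, of 59 Trav segments in EACBE-/- (left) and wild type (right) against their order in the annotated array, where 1 is farthest from Traj. Points are means of 2 libraries with a bar between them, diamonds are the Trav16 copies and the dashed line is the place of Trav16, which has no row; Trav16n lies at 40.7 in EACBE-/- and 37.0 in wild type, above every segment to its left.

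The segments with the most similar Traj profiles were found by the overlap of profiles, the sum over Traj segments of the smaller of the 2 shares, averaged over the 4 Tcra libraries. The overlap between the copies themselves was 60.4% and 72.6% in EACBE-/- and 48.6% and 77.9% in wild type. Among 57 other segments, Trav16n was most like Trav6-7-dv9 (82.3%), Trav13-1 (80.1%) and Trav12-1 (80.1%), which are 113th, 97th and 96th in the array and thus nearer Traj than the annotated place of Trav16n. Trav16d-dv11 was most like Trav7-4 (83.9%), Trav6d-7 (83.6%) and Trav7d-4 (82.3%), which are 88th, 41st and 14th. The order depended on the shallow libraries: over the replicate 2 libraries alone, Trav13-1 and Trav12-1 came first for Trav16n with Trav6-7-dv9 4th, and Trav6d-7 and Trav7d-4 came first for Trav16d-dv11 with Trav7-4 12th.

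In Trd the copies took small shares, and no difference between the genotypes was detected in these libraries. By share, Trav16n ranked 11th of 103 listed V segments in EACBE-/- replicate 2 and 11th of 88 in wild-type replicate 2. In replicate 1 it ranked 16th of 22 in EACBE-/- and 14th of 18 in wild type. Trav16n had 7 and 617 counts in EACBE-/- (0.125% and 1.31% of Trd counts) and 3 and 349 in wild type (0.172% and 1.24%). Its share was 10.5 times as high in replicate 2 as in replicate 1 for EACBE-/- and 7.22 times for wild type, far more than the genotypes differed. The means were 0.717% ± 0.837 in EACBE-/- and 0.707% ± 0.757 in wild type (SD, n = 2 each).

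Trav16d-dv11, the copy annotated for both chains, had 16 and 93 counts in EACBE-/- (0.285% and 0.197%) and 7 and 38 in wild type (0.401% and 0.135%). Replicate 1 was the higher one in both genotypes, the reverse of Trav16n. Its means were 0.241% ± 0.0620 in EACBE-/- and 0.268% ± 0.188 in wild type (SD, n = 2 each). By edgeR's quasi-likelihood test with Benjamini-Hochberg adjustment over 18 V segments, the log2 change was -0.02 (SE 1.55) for Trav16n and -0.08 (SE 0.914) for Trav16d-dv11, each with an adjusted p of 0.991. The 2 SE ranges, -3.13 to 3.09 and -1.91 to 1.75, are approximate and leave room for large changes. In that edgeR test 0 of 18 segments passed, which is 0.0%, 3 had an unadjusted p below 0.05, and DESeq2 also called 0. Segments named with dv and those of families with all 3 kinds of copy numbered 10 each in this fit, and 0 passed, with a median of 0.29 where that over all 18 was 0.06.

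The J partner in Trd was Trdj1 for nearly all counts of both copies. Trav16n joined Trdj1 and Trdj2 with 7 and 0, and 609 and 8, counts in the EACBE-/- libraries and with 3 and 0, and 347 and 2, in the wild-type libraries. In replicate 2 this is a Trdj2 share of 1.30% in EACBE-/- and 0.573% in wild type, against 0.825% and 0.993% for other V segments. Trav16d-dv11 had 16 and 0, and 92 and 1, in EACBE-/- and 7 and 0, and 37 and 1, in wild type. The counts of 0 allow Trdj2 shares of up to 18.8% for Trav16d-dv11 and 42.9% for Trav16n in EACBE-/- replicate 1, so the replicate 1 tables say little about it.

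The last comparison set the share of Trd counts against the share of Tcra counts of the same copy. Both copies took a smaller share of Trd than of Tcra in 4 of 4 pairings of libraries with the same genotype and number. Each of the 13 V segments listed in all 8 tables likewise went the same way in all 4 pairings. This was thus not particular to the copies. Trav16d-dv11 averaged 0.255% ± 0.115 of Trd counts and 1.40% ± 0.578 of Tcra counts (SD, n = 4 each), and the loci did not overlap, as was the case for 92.3% of the segments in that fit. Its log2 difference was -2.53 (SE 0.826, adjusted p = 0.0164 by edgeR's quasi-likelihood test with Benjamini-Hochberg adjustment over the 13 V segments listed in all 8 tables). The call was lost without Tcra EACBE-/- replicate 1 (adjusted p = 0.0656), Tcra wild-type replicate 1 (0.0730) or Trd wild-type replicate 2 (0.0764) and within EACBE-/- or wild type alone (0.0617 and 0.0870), while without any 1 library the difference stayed between -2.95 and -2.16.

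Trav16n averaged 0.712% ± 0.652 of Trd counts and 2.10% ± 0.649 of Tcra counts (SD, n = 4 each), with overlapping libraries. The ratio of the shares was 0.0543 and 0.478 in EACBE-/- and 0.144 and 0.573 in wild type, so replicate 1 had the lower ratio in both genotypes. Its log2 difference was -1.48 (SE 0.875, adjusted p = 0.127 in the same edgeR test with Benjamini-Hochberg adjustment), and it passed with TMM factors (-2.29, adjusted p = 0.0105), with DESeq2 (-2.03, adjusted p = 0.00506), with totals over shared segments (-2.64, adjusted p = 0.0260), with copies summed (-1.80, adjusted p = 0.00364) and without Trd EACBE-/- replicate 2 (-2.72, adjusted p = 0.00359). The 13 segments are those also listed in the Trd replicate 1 tables, which held 22 V segments in EACBE-/- and 18 in wild type. Their median and their split of calls therefore describe this set, not all V segments. Of the 13 segments, 11 passed, which is 84.6%, with 6 higher and 5 lower in Trd. Trav16n held the median difference of the 13, from which Trav16d-dv11 differed by -1.05. Scaling moved all of them: the median shift was -0.68 with TMM factors, -0.49 with DESeq2 size factors and -1.24 with totals over shared segments, and the calls then split into 5 higher and 7 lower, 6 and 7, and 4 and 7. Under these scalings Trav16n was still the median, and Trav16d-dv11 differed from it by -0.77 to -1.13.

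Of the 10 segments among these named with dv, 6 rose and 3 fell in Trd and 1 did not pass, with a median of 1.68, so Trav16d-dv11 was among the 3 that fell. The segments that rose were the 4 Trav15 copies that share a name with dv6, Trav21-dv12 and Trav13-4-dv7. The others that fell were Trav4-4-dv10 (-5.00) and Trav6-7-dv9 (-2.24). Of the 10 segments from families with all 3 kinds of copy listed, 5 rose, 4 fell and 1 did not pass, with a median of -0.36. The difference between loci was not shown to depend on genotype: the interaction was -0.61 (SE 1.72) for Trav16n and -0.24 (SE 1.58) for Trav16d-dv11, each with an adjusted p of 0.996 by edgeR's quasi-likelihood test with Benjamini-Hochberg adjustment. In that edgeR test 0 of 13 segments passed, which is 0.0%, 0 had an unadjusted p below 0.05, and DESeq2 called 0.

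**Figure D5:**
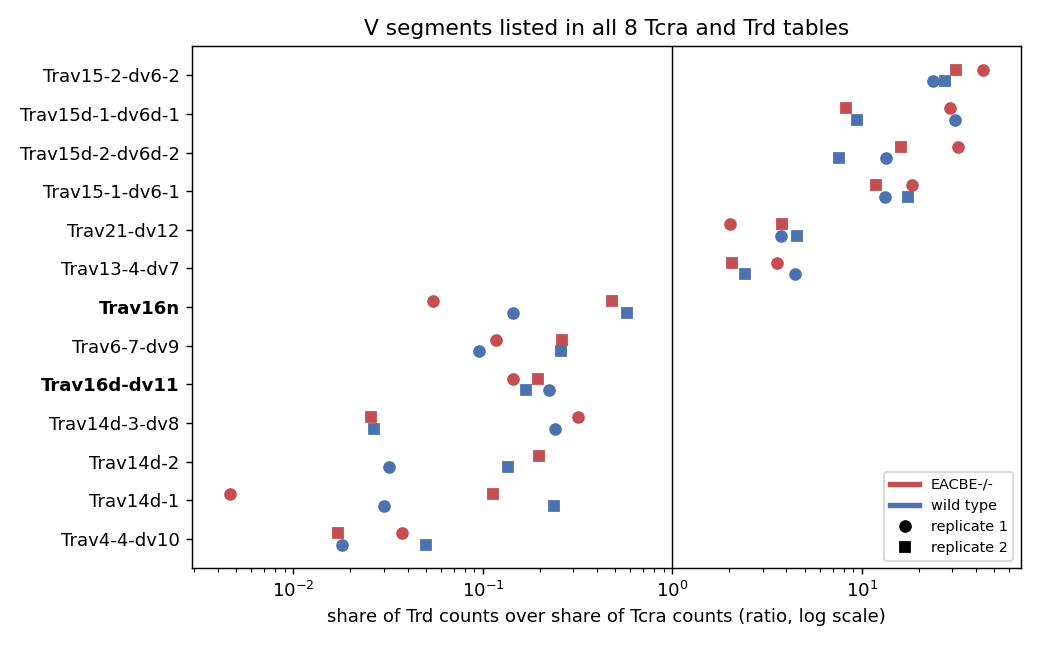
Share of Trd counts over share of Tcra counts, on a log axis, for the 13 V segments listed in all 8 tables, ordered by their fitted log2 difference, with the Trav16 copies in bold. Each point is a pairing of libraries of one genotype (EACBE-/- red, wild type blue) and one replicate number (1 circle, 2 square); all 8 points of the Trav16 copies lie left of 1, and Trav14d-2 has no circle for EACBE-/- because its Trd count there was 0.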

How the data were processed

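The authors deposited whole-number counts of V segments (rows) against J segments (columns), 1 table per library. The sources used here do not name the segment caller, nor say whether counts are of reads or of receptors, nor how near-identical copies were told apart. If counts are reads, a receptor with much RNA counts for more than one with little. Per the submitters' processing notes, the genome build was mm10 and the tools included Bowtie2 (2.20.8 and 2.3.4.3) and cutadapt (0.4.4), with no step named.

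All 106 listed Trav names matched a RefSeq annotation of GRCm38.p6 by symbol. Counts per V segment and per V-J pair were tested with edgeR 4.0.16 under R 4.3.3 (glmQLFit, glmQLFTest), with library sizes set to the table totals, without TMM factors, filterByExpr at a minimum count of 10 and a minimum total of 15, and Benjamini-Hochberg adjustment over each whole table at a threshold of 0.05. Only segments listed in every table of a fit were tested: 105 in Tcra, 18 in Trd and 13 in both. The SE of an edgeR log2 change was taken as its size over the square root of the F statistic. It is therefore approximate, above all for small changes. With so few libraries, the ranges of 2 SE either side are narrower than 95% intervals. Single values were compared by two-sided exact permutation tests, and Wilson intervals are at 95%. Intervals and the floor of 3 counts for a count of 0 cover counting error only. Simulations with known changes measured what the tests could find under a simple spread. They gave every feature the same dispersion and no difference between replicate numbers. Of features changed 1.5 fold, 2.86% were recovered for Tcra V segments. For Trd V segments, Tcra pairs and Trd against Tcra, 0% were recovered at 1.5 fold. At 4 fold, recovery was 85.7% for Tcra V segments and 45.5% for Tcra pairs. It was 100% for Trd V segments and for Trd against Tcra at 4 fold. The Trd share of Trav16n differed 10.5 times between EACBE-/- replicates and 7.22 times between wild-type ones. The simulations held no such difference, so their Trd recovery does not carry over to Trav16n. The rest was done in Python 3.11.15 with pandas 2.3.3, scipy 1.17.1 and numpy 2.4.6, and plotted with matplotlib 3.10.9.

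Named were the copies in both loci, the 3 leading Traj partners of each copy and genotype, every Trav16 pair past the threshold, the 3 Trav segments with the most similar Traj profile and the neighbours in level. The members and lists, among them segments named with dv and families with all 3 kinds of copy, were chosen with earlier results of these data known. The design had expected 3 copies, and the rows held 2. Other settings tried were DESeq2 1.42.0, TMM factors, a block for the replicate number, no filter, leaving out each library, copies summed, segments of 1 replicate kept, totals over shared segments, an array split at Traj32 and each pair counted once. The contrast within each genotype was added after the data were seen.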

Additional observations from a re-analysis of the deposited data

How the results depend on the processing

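Settings that left out no library and are not named here kept the direction and the call of each result on the copies, apart from counting each pair once. In Tcra, the log2 change of Trav16n was 0.22 to 1.07 and that of Trav16d-dv11 -0.34 to 0.89 when a library was left out, and with the replicate number as a block that of Trav16n was 0.57 with an adjusted p of 0.00517. The deviations of libraries with the same number correlated at 0.878 over 105 V segments in Tcra and 0.847 over 18 in Trd, but only 2 pairs exist and the labels do not say what the numbers mark, so the block is an alternative alone. In Trd, a left-out library gave -2.56 to 2.07 for Trav16n and -0.74 to 0.82 for Trav16d-dv11, and the sign turned for Trav16n with the replicate block (0.044), segments of 1 replicate kept (0.0085) and totals over shared segments (0.020), and for Trav16d-dv11 with the block (0.33). In Trd against Tcra, Trav16d-dv11 lost its call within wild type (-2.41, adjusted p = 0.0870) and within EACBE-/- (-2.65, adjusted p = 0.0617) and ranged from -2.95 to -2.16 without a library. Trav16n ranged from -2.72 to -1.03 and passed with TMM factors (-2.29), DESeq2 (-2.03), the replicate block (-2.02), copies summed (-1.80) and totals over shared segments (-2.64). The interaction reversed for Trav16d-dv11 with DESeq2 (0.12), and without a library it ranged from -0.96 to 0.61 for Trav16d-dv11 and from -3.22 to 1.52 for Trav16n. DESeq2 scaling shifted the median V change by -0.12 in Trd and by 0.32 in the interaction. Called Trav16 pairs numbered 0 with DESeq2, 2 with no filter, 20 with the block and 0 to 2 without a library, against 1; all called Tcra pairs numbered 19, 129, 715 and 0 to 150, against 79. Called V segments numbered 49 with the block and 12 with copies summed in Tcra, against 6; 3, 1 and, with totals over shared segments, 1 in Trd, against 0; and 93 with segments of 1 replicate kept, 6 within wild type and 7 within EACBE-/- in Trd against Tcra, against 11. Counting each pair once gave 0.963 points for the 5′ share, -2.20 for the 3′ share and 1.12 for the mean Traj number of both copies, and the sign turned for the middle share of both (1.24) and for the 5′ and middle shares of Trav16n (-1.40 and 2.35). In replicate 2 of both genotypes both copies hold all 43 Traj segments, so there this count differs by 0 whatever the use, and its values say nothing of the shift. Splitting the array at Traj32 gave 15.0 points for its 5′ side. Without a library, the 5′ share differed by 10.3 to 12.1 points, the middle share by -7.29 to 4.74, the 3′ share by -15.0 to -4.85 and the mean Traj number by 4.09 to 5.37. The 5′ share of Trav16n alone differed by -0.688 to 17.8 points, its middle share by -3.69 to 1.93, the middle share of Trav16d-dv11 by -6.64 to 18.4, and the split by -9.71 to 23.5 in Tcra and -31.5 to 28.7 in Trd. A split without Trav16d-dv11 has no value. The cause of these shifts was not tested. The 2 libraries a group and the few Trd counts of replicate 1 limit what can be told.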
